A study of Mus musculus with 42 samples.

Results

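The genes described here are 9 enzymes of purine synthesis and salvage, namely Prps1, Prps2, Ppat, Gart, Adsl, Ampd1, Hprt, Aprt and Xdh, out of 21186 genes with a symbol on a mouse array. They were chosen by their place in the pathway after earlier results of these data had shown Prps1 higher in huoxue-treated mice and Hprt higher in rosiglitazone-treated mice, each against the untreated model. Those 2 contrasts therefore chose the set and are described below without a test. The 9 genes are read by 16 probes, 1 for Hprt (on 10 spots), Adsl and Ampd1, 3 for Gart and 2 for each of the others.

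Purine nucleotides carry cellular energy as ATP and GTP. New purine rings are built on phosphoribosyl pyrophosphate, which the synthetases Prps1 and Prps2 make. Ppat then takes the committed amidotransferase step, Gart carries several of the next reactions and Adsl acts both in ring synthesis and in the last step from IMP to AMP. Hprt and Aprt return free bases to the nucleotide pool, Ampd1 deaminates AMP to IMP in skeletal muscle, and Xdh oxidizes hypoxanthine and xanthine to urate. In working muscle Ampd1, an adenylosuccinate synthase and Adsl form the purine nucleotide cycle.

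Total RNA of aorta and of skeletal muscle was measured in 7 groups of male mice, with 3 arrays per group and tissue and 42 arrays in all; all mice were adults. Group G held healthy C57BL/6J mice and group A KK/Ay mice, an inbred strain that carries the yellow agouti allele and becomes obese and diabetic. Groups B to F were KK/Ay mice made into a model of diabetic macroangiopathy with a high-fat diet and L-NAME, a nitric oxide synthase inhibitor: C was given saline, B SHENQI compound, D its yangyinyiqi part, E its huoxue part and F rosiglitazone, a PPAR gamma agonist. G and A were given saline by gavage as well, so strain and diabetes cannot be told apart between them, and C differs from G by strain, diet and L-NAME together. The labels do not say whether an aorta and a muscle array of the same number came from 1 mouse, and P values measure the spread between arrays.

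Values are log2 intensities after background correction and quantile normalization over all arrays, averaged over the probes of a gene. The share of named probes well above background was 62.9% to 77.6% in aorta and 53.8% to 70% in muscle, by array. Slide 1, with 3 huoxue muscle arrays and rosiglitazone muscle array 1, had the lowest shares (53.8% to 57.3%). The mean of 5 smooth muscle markers was 9.57 to 14.31 in aorta and 8.75 to 10.24 in muscle, and that of 6 skeletal fibre markers 17.03 to 17.4 in muscle and 8.02 to 16.19 in aorta. That of 6 adipocyte markers was 12.6 to 14.99 in aorta and 9.44 to 12.28 in muscle, with Ucp1 at 14.98 to 17.51 and 5.29 to 8.93. That of 4 cardiac markers was 6.08 to 12.32 in aorta and 7.35 to 7.91 in muscle. Of these, Myh6 had its higher median in muscle (12.55 against 9.92). The part of these cells in the tissue differences was not tested. Healthy aorta array 1 stood apart, with the lowest smooth muscle mean of the 21 aorta arrays (9.57) and the highest mean of 5 leukocyte markers (9.08). Diabetic aorta array 2 had the highest skeletal fibre mean of an aorta array (16.19). In such bulk tissue, fewer cells of a type and less RNA per cell cannot be told apart.

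The sequences below are what the array read for the genes with the clearest differences, 1 of the probes each. They are given 5′ to 3′ as the files list them, with positions on mouse build mm9 from the same files; the exon map of that build was not used here. The Adsl probe spans 989 genomic bases and the Xdh probe 875, although each is 60 bases long, so both cross at least 1 intron, and the others lie in 1 block of 60 bases.
Ampd1, chr3:102902649-102902708, plus strand: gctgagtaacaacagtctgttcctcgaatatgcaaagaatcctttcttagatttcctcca
Adsl, chr15:80796591-80797579, plus strand: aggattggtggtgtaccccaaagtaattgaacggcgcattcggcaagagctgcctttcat
Ppat, chr5:77347115-77347174, minus strand: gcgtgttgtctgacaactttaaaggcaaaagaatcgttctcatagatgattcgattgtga
Prps1, chrX:137008375-137008434, plus strand: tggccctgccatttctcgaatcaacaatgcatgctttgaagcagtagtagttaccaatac
Xdh, chr17:74242100-74242974, minus strand: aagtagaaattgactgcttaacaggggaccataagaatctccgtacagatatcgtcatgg

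To see how the 2 tissues differ, the 7 aorta groups were compared with the 7 muscle groups in limma over 16107 genes. Of the 9 genes, 5 were lower in aorta and 2 higher after Benjamini-Hochberg adjustment. Of all genes tested, 77% passed, 36.6% lower and 40.4% higher in aorta, so 7 of 9 is close to the background. The median difference of the 9 genes was -0.50 on the log2 scale, against 0.03 for all genes, and the median size of the difference was 1.01, against 0.42.

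Ampd1 had the largest difference. Its log2 level was 10.99 to 14.38 in muscle (median 13.7) and 5.44 to 10.82 in aorta (median 6.42), with no overlap, and the difference of -6.71 (SE 0.323, adjusted p = 2.87e-18, limma) corresponds to 105-fold. It was not well above background on 4 of the 21 aorta arrays, and the size moved with the background correction and scaling, from -8.44 to -5.99. Adsl, the lyase that works beside Ampd1 in the purine nucleotide cycle, was 10.2 to 11.25 in muscle and 7.99 to 9.11 in aorta, again with no overlap and 4.82-fold lower in aorta (log2 -2.27, SE 0.0593, adjusted p = 8.28e-25).

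Ppat, Prps1 and Gart, which act in ring synthesis, were also lower in aorta. Ppat was 7.02 to 8.12 in aorta and 7.88 to 9.04 in muscle, a log2 difference of -1.34 (SE 0.078, adjusted p = 3.76e-16). Prps1 was 8.97 to 10.05 in aorta and 10.01 to 10.78 in muscle (log2 -1.06, SE 0.0574, adjusted p = 5.38e-17). In both genes the ranges overlap only where healthy aorta array 1, the highest aorta array, lies above healthy muscle array 3, the lowest muscle array. Gart was 6.36 to 6.99 in aorta and 7.07 to 7.37 in muscle, with no overlap at the smaller difference of -0.50 (SE 0.0411, adjusted p = 1.87e-12). The probes of these genes moved the same way, by -1.53 and -1.15 for Ppat and by -1.04 and -1.09 for Prps1. The third Gart probe, placed on the opposite strand, was not well above background on any array. How many of all genes showed no overlap between the tissues, as Ampd1, Adsl and Gart did, was not counted.

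Prps2 and Hprt were higher in aorta. Prps2 was well above background on all 21 aorta arrays and on 4 of 21 muscle arrays, with log2 levels of 6.28 to 7.25 in aorta and 5.39 to 6.44 in muscle (log2 1.01, SE 0.0823, adjusted p = 1.49e-12). With muscle held at the lowest measurable signal it was at least 1.87-fold higher in aorta, a bound for this background correction: the difference was 0.49 with an offset of 50 and 2.25 in the authors' table. The 2 PRPP synthetases thus ran in opposite directions between the tissues. Hprt was 11.31 to 12.77 in aorta and 11.19 to 11.94 in muscle, a log2 difference of 0.38 (SE 0.079, adjusted p = 6.23e-05) that turned to -0.04 (adjusted p = 0.604) when the scanner's processed signal was used. Its 2 ranges overlap widely. For Aprt (-0.07, adjusted p = 0.295) and Xdh (0.12, adjusted p = 0.303) no difference between the tissues was called; 1 of the 2 Aprt probes was well above background on 6 aorta arrays and no muscle array.

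**Figure D1:**
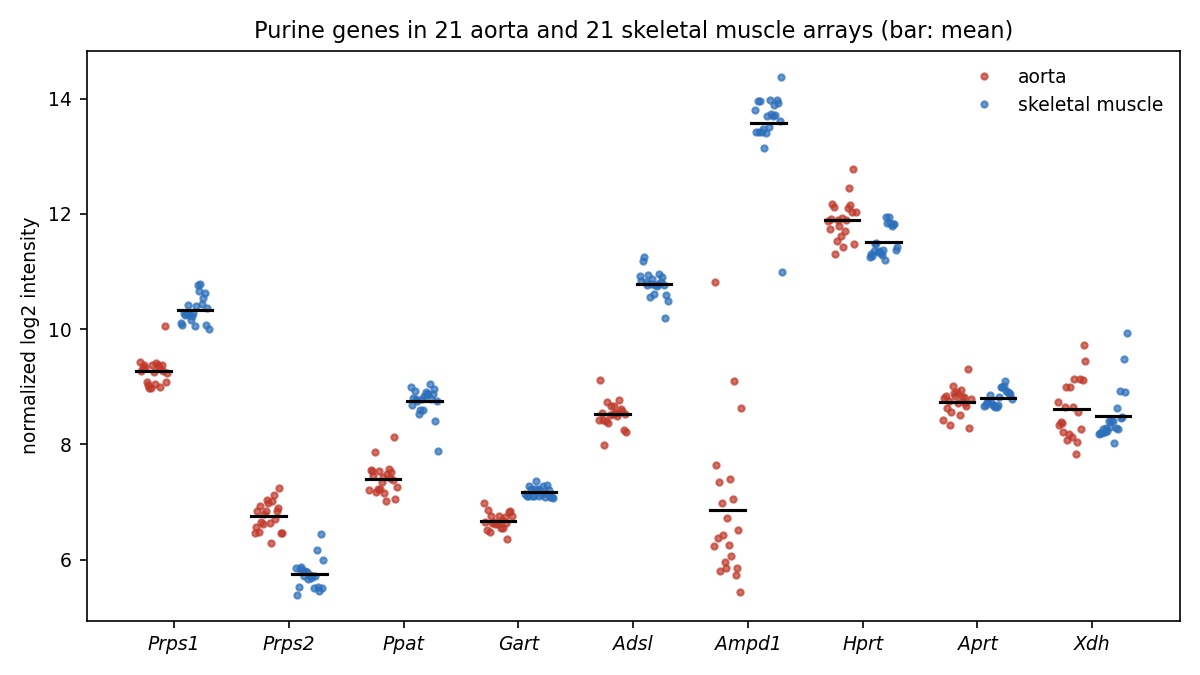
Normalized log2 intensity (y axis) of the 9 genes (x axis) on 21 aorta arrays (red) and 21 skeletal muscle arrays (blue), with a bar at each mean. Ampd1, Adsl and Gart do not overlap between the tissues, and the share of all genes separated like this was not counted. Levels of different genes are not comparable, since each is read by other probes.

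The other genes of the pathway give the setting. Of 35 listed genes of purine synthesis, interconversion, breakdown and transport, 33 were on the array and 30 were tested. Between the tissues 17 were higher in aorta and 9 lower after adjustment, and their median difference was 0.26. Other enzymes of ring synthesis were mixed: Paics was lower in aorta (-0.38, SE 0.0531), Pfas higher (0.23, SE 0.0951) and Atic not called (-0.13, SE 0.0669). The largest differences towards muscle were those of Adssl1, the muscle adenylosuccinate synthase (log2 -4.69, SE 0.172, 25.8-fold), Ak1, the cytosolic adenylate kinase (-3.74, SE 0.175), Nt5c3, a 5′-nucleotidase (-1.83, SE 0.1), and Adk, adenosine kinase (-0.54, SE 0.096). Adssl1, Adsl and Ampd1, all enzymes of the purine nucleotide cycle, were thus all lower in aorta. Towards aorta they were Impdh1, which takes IMP to XMP (1.84, SE 0.128), Ampd2, another AMP deaminase (1.84, SE 0.0833), Nt5c, a cytosolic nucleotidase (1.65, SE 0.0989), and Ak3, a mitochondrial adenylate kinase (1.62, SE 0.104). The AMP deaminases Ampd1 and Ampd2 differed in opposite directions. Ampd3, a further AMP deaminase, was lower in aorta by a smaller difference (-0.28, SE 0.0768).

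Within aorta, Ampd1 varied more than any other of the 9 genes, with an SD of 1.31 over the 21 arrays against 0.14 to 0.51 for the others. On 18 arrays it was under 8, and it reached 10.82 on diabetic aorta array 2, 9.1 on rosiglitazone aorta array 1 and 8.63 on healthy aorta array 3. Those 3 arrays also had the 3 highest means of the 6 skeletal fibre markers, 16.19, 15.03 and 13.85. Over the 21 aorta arrays Ampd1 and that mean correlated with a Pearson r of 0.93 and a Spearman rho of 0.94 (r of 0.90 without the 2 arrays with the most extreme marker means), a description of arrays that share groups and slides. The part of the fibre markers in the aortic Ampd1 signal was not tested. In muscle, Ampd1 was 13.14 to 14.38 on 20 arrays and 10.99 on healthy muscle array 3. The skeletal fibre mean of that array was 17.03, the lowest value in muscle. Huoxue muscle array 2 had the same mean (17.03), with Ampd1 at 13.7. Over the 21 muscle arrays Ampd1 and the fibre mean had a Pearson r of 0.44 and a Spearman rho of 0.07. Without the 2 arrays with the most extreme marker means r was -0.03. The fibre mean spanned only 17.03 to 17.4 in muscle, and the median of Tnni2 was also its highest value (18.08). These markers thus had little spread there to correlate with. Of the 6 fibre markers on healthy muscle array 3, Ckm (15.35) and Mylpf (16.34) were below all other muscle arrays (lowest 15.84 and 16.46). Acta1, Myh4, Tnnt3 and Tnni2 were within the range of the other muscle arrays. That array and diabetic aorta array 2 lie on the only slide that holds both tissues.

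**Figure D2:**
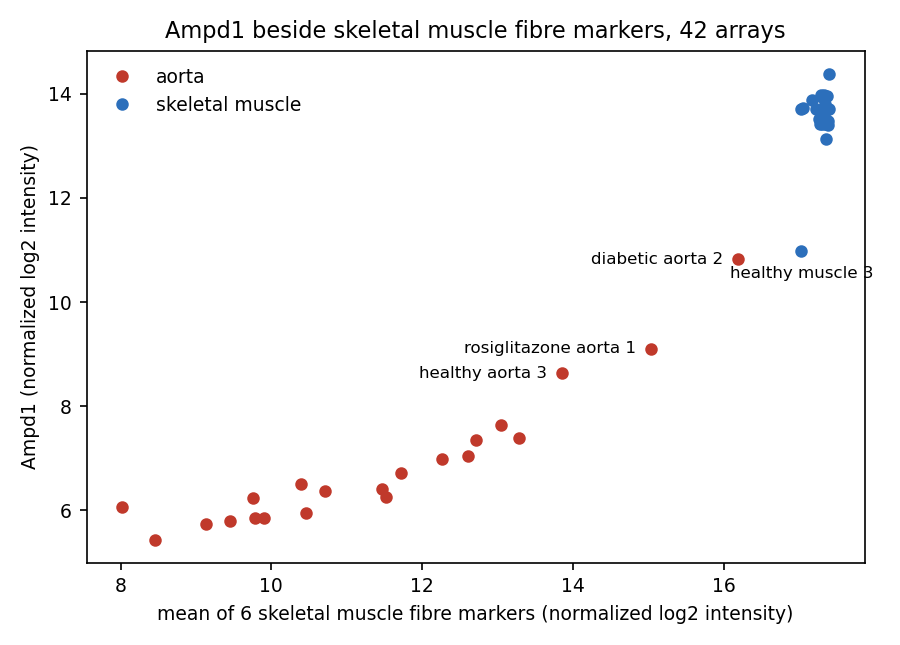
Ampd1 (y axis, normalized log2 intensity) against the mean of 6 skeletal muscle fibre markers (x axis, same unit), 1 point per array, aorta in red and muscle in blue. Across aorta Ampd1 is higher where the markers are higher (r of 0.93, 21 arrays), and healthy muscle array 3 lies below the other muscle arrays at 10.99.

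Whether the diabetic strain differs from healthy mice was asked next. Xdh, the urate-forming oxidase, was the single gene of the 9 that passed in A vs G over both tissues (1 of 9, where 4.5% of 14802 genes passed). In aorta it was 9.12, 9.73 and 9.45 on the healthy arrays and 8.73, 8.34 and 8.39 on the diabetic arrays. In muscle it was 9.48, 8.9 and 9.94 on the healthy arrays and 8.18, 8.2 and 8.2 on the diabetic arrays. The groups did not overlap in either tissue. The share of all genes separated like this was not counted, here or for C vs G. Xdh was lower in A by 1.10 on the log2 scale (95% interval -1.48 to -0.71, adjusted p = 0.00508, limma), 2.14-fold.

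In C vs G, Xdh was again the single gene called among the 7 that could be tested (1 of 7, against 5.19% of 15729 genes), since Prps1 and Hprt had been seen in contrasts that use the arrays of C. On the macroangiopathy arrays it was 8.99, 8.08 and 8.18 in aorta and 8.23, 8.4 and 8.3 in muscle, all below the healthy arrays. The difference was -1.07 (95% interval -1.51 to -0.63, adjusted p = 0.0143), 2.1-fold. A vs G and C vs G share the 6 healthy arrays, so the second is no independent repeat of the first.

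By tissue, in the fit of all 42 arrays, Xdh differed in A vs G by -0.95 in aorta (adjusted p = 0.0219), where it was the 1 gene called of 8 tested, against 14.4% of all genes. That call was lost with slide as a fixed term (-0.62, adjusted p = 0.375), with the 6 arrays alone (adjusted p = 0.233) and without healthy aorta array 2 or diabetic aorta array 2 or 3 (adjusted p = 0.0647 to 0.0785). In muscle it differed by -1.24 (adjusted p = 0.00371) and was called with Adsl, 2 of 8, against 9.26%. In C vs G it differed by -1.01 in aorta (adjusted p = 0.0109), as the 1 gene called of 7, against 19.7%, and by -1.13 in muscle (adjusted p = 0.00975), as 1 of 6, against 8.28%. With the 6 arrays of the tissue alone neither was called (adjusted p = 0.183 and 0.0684), nor was the aortic one without macroangiopathy aorta array 2 or 3 (adjusted p = 0.0771 and 0.0605) or the one in muscle without healthy muscle array 3 (adjusted p = 0.0732). Aortic Ampd1 in A vs G and Prps2 in muscle were too dim to be tested. The difference between the tissues in A vs G was 0.30 (SE 0.357, adjusted p = 0.953), and no gene of the 9 passed that interaction test (0 of 9, 0 at an unadjusted P below 0.05, against 0.0743% of all genes after adjustment). Both Xdh probes gave the same result without overlap in A vs G and C vs G in each tissue: -1.05 and -1.30 for the probe printed above and -0.85 and -1.18 for the other in A vs G, in aorta and muscle.

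The 4 treated groups lay near A and C. Their mean Xdh level was 8.34 to 8.65 in aorta and 8.26 to 8.62 in muscle, against 9.43 ± 0.31 (SD, n = 3) and 9.44 ± 0.52 (SD, n = 3) in healthy mice. Of the 18 KK/Ay arrays of aorta, 16 were below the lowest healthy array, and of the 18 of muscle, 17. The exceptions were huoxue aorta array 1 (9.13), rosiglitazone aorta array 2 (9.14) and rosiglitazone muscle array 1 (8.92), each within 0.02 of the lowest healthy array.

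Slide bears on this result, because A and G share 1 slide only within a tissue. There, on slide 3, the diabetic aorta array was lower in Xdh than the mean of 2 healthy arrays by 0.56. With slide as a fixed term the difference in A vs G was -0.56 and was no longer called (adjusted p = 0.304, limma). That estimate rests on the same 3 aorta arrays of slide 3, so it is no second result and says nothing about muscle. No slide holds C and G in the same tissue. KK/Ay and healthy arrays also share slide 11, where 2 SHENQI aorta arrays (8.21 and 8.64) lay below the healthy array (9.73), and slide 2, where the rosiglitazone muscle mean was 0.72 lower than the healthy mean (8.47 against 9.19, 2 arrays each). On each of these 3 slides every KK/Ay array was below every healthy array in Xdh. With healthy muscle array 3 and diabetic aorta array 2 left out, a choice made after seeing the data, the difference in A vs G was -0.94 (adjusted p = 0.0249).

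Cell type markers were set beside Xdh. The mean of 5 endothelial markers was 7.81 to 9.06 in healthy and 7.79 to 9.06 in KK/Ay aorta, and 7.74 to 8.72 and 8.1 to 8.44 in muscle. That of 6 adipocyte markers was 12.82 to 14.35 and 12.6 to 14.99 in aorta and 9.44 to 10.6 and 9.54 to 12.28 in muscle. These ranges overlap between healthy and KK/Ay mice. The leukocyte mean did not overlap in muscle, at 7.11 to 7.49 in healthy and 6.54 to 7.09 in KK/Ay mice. The smooth muscle mean overlapped in aorta, at 9.57 to 13.11 in healthy and 11.94 to 14.31 in KK/Ay mice. The red cell mean did not overlap between A and G, at 12.94 to 14.07 against 11.66 to 12.85 in aorta and 10.33 to 10.72 against 11.08 to 11.48 in muscle. Over all KK/Ay arrays it did overlap that of G, at 12.51 to 14.07 in aorta and 10.33 to 11.36 in muscle. Across the 21 aorta arrays Xdh and the adipocyte mean had a Pearson r of 0.38 and a Spearman rho of 0.60. For the endothelial mean these were 0.35 and 0.50, and for the smooth muscle mean -0.43 and -0.43. In muscle they were -0.12 and 0.21, -0.17 and 0.10, and 0.05 and 0.38, in the same order. These values describe arrays that share groups and slides. The part of these cell types in the Xdh difference was not tested.

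**Figure D3:**
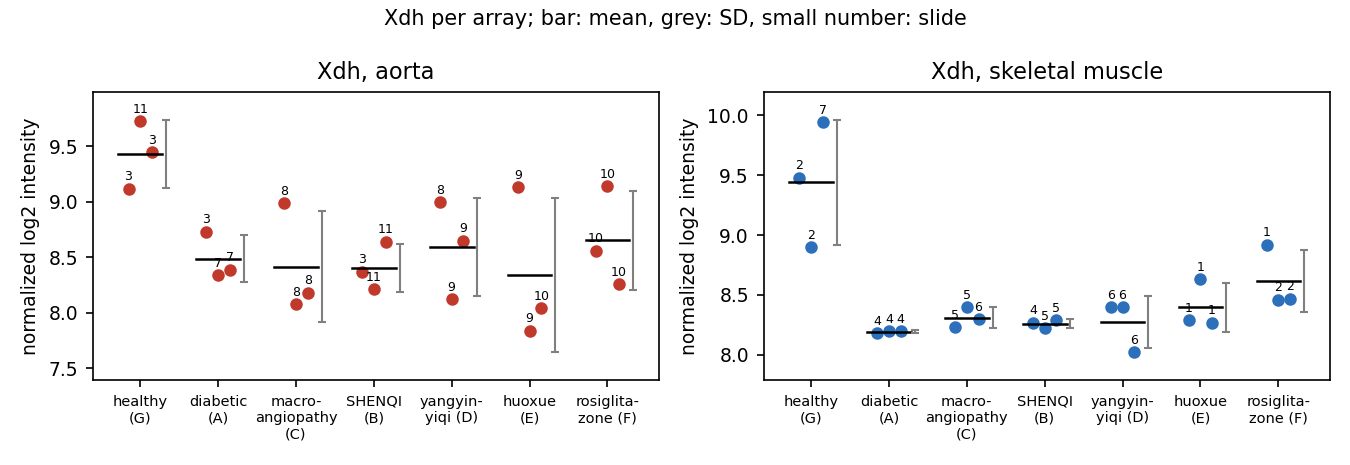
Normalized log2 intensity of Xdh (y axis) on each array of the 7 groups (x axis) in aorta and skeletal muscle, with the mean as a bar, the SD in grey and the slide number above each point. Healthy mice have means of 9.43 and 9.44, and the 6 KK/Ay groups means of 8.19 to 8.65.

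Adsl showed the opposite direction at a smaller size. In muscle its log2 level was 10.2, 10.59 and 10.48 on the healthy arrays and 10.92, 10.83 and 11.18 on the diabetic arrays, and 17 of the 18 KK/Ay muscle arrays lay above the highest healthy one. In A vs G it was called in muscle (0.55, SE 0.156, adjusted p = 0.0223) and not in aorta (0.36, SE 0.156, adjusted p = 0.124) or over both tissues (0.45, SE 0.143, adjusted p = 0.0937), although the fit of all 42 arrays called the latter (adjusted p = 0.00382). The call in muscle was lost without healthy muscle array 1 (adjusted p = 0.133) and without diabetic muscle array 3 (adjusted p = 0.137), and also with slide as a random block (adjusted p = 0.0855), the authors' table (adjusted p = 0.0677) or the 6 arrays alone (adjusted p = 0.116). The tissue difference for Adsl was -0.19 (SE 0.291, adjusted p = 0.966), so the 2 tissues were not shown to differ. The diabetic muscle arrays lie on slide 4, which holds no healthy array.

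The remaining 7 genes gave differences in A vs G between -0.26 (Hprt, 95% interval -0.66 to 0.15) and 1.05 (Ampd1, -0.71 to 2.82), none of which passed. For Ampd1 each group held 1 array far from its others, diabetic aorta array 2 and healthy muscle array 3. Prps1 differed by -0.06 (-0.40 to 0.29), Prps2 by -0.24 (-0.66 to 0.18), Aprt by -0.13 (-0.47 to 0.21), Ppat by 0.22 (-0.25 to 0.68) and Gart by -0.03 (-0.25 to 0.19). The median over the 9 genes was -0.06, against 0.03 for all genes. None of the 30 other pathway genes passed in A vs G or in C vs G over both tissues in limma, and 4 did at an unadjusted P below 0.05 in each.

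In aorta alone 4 of the 30 pathway genes passed in A vs G and 6 in C vs G, shares near those of all genes (14.4% and 19.7%), and they are named here after their values were seen. In A vs G, Ampd2 (1.07, adjusted p = 0.0015), Ak1 (1.81, adjusted p = 0.0084), Entpd1 (0.86, adjusted p = 0.0365) and Nt5e (0.81, adjusted p = 0.0182) were higher in diabetic aorta. Entpd1 and Nt5e are the surface enzymes that take extracellular ATP to adenosine. In C vs G, Ampd2 (1.02), Entpd1 (1.09), Slc29a1 (0.81), a nucleoside transporter, and Prpsap1 (0.39) were higher, and Pnp (-0.79) and Slc28a2 (-1.10) lower. Ak1 was itself higher in muscle, and the skeletal fibre mean of the aorta arrays was 9.76, 16.19 and 13.05 in A and 10.4, 8.46 and 13.85 in G; its part in the Ak1 difference was not tested. The smooth muscle mean was 13.71 to 14.11 in the aorta of C, against 9.57 to 13.11 in that of G, and the mean of 4 red cell markers 13.58 to 13.73, against 11.66 to 12.85, both without overlap. The part of these cells in the aortic differences was not tested.

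High-fat diet and L-NAME (C vs A), SHENQI compound (B vs C) and the yangyinyiqi part (D vs C) were compared next. Of the 7 genes tested, none passed in any of these in limma, over both tissues or in either, where 0% of all genes passed as well. At an unadjusted P below 0.05 no member passed over both tissues in the 3 comparisons, against 804 of 15708, 424 of 15634 and 542 of 15871 genes. Within a tissue 1 member did, Ampd1 in the aorta of C vs A (-1.78, unadjusted P = 0.0451, limma), against 529 of 15338 genes there. The aortic mean of A includes diabetic aorta array 2, at 10.82. In the other 5 comparisons no member did, against 57 to 406 of 13445 to 15537 genes. Over both tissues and without Ampd1, the differences ranged from -0.18 to 0.18, and their 95% intervals from -0.46 to 0.46. Within a tissue they ranged from -0.27 to 0.19. Ampd1 differed by -1.09 in C vs A (95% interval -2.42 to 0.25), by 0.16 in B vs C (-0.38 to 0.70) and by 0.11 in D vs C (-0.32 to 0.54). Such a miss does not show that the groups were alike.

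**Figure D4:**
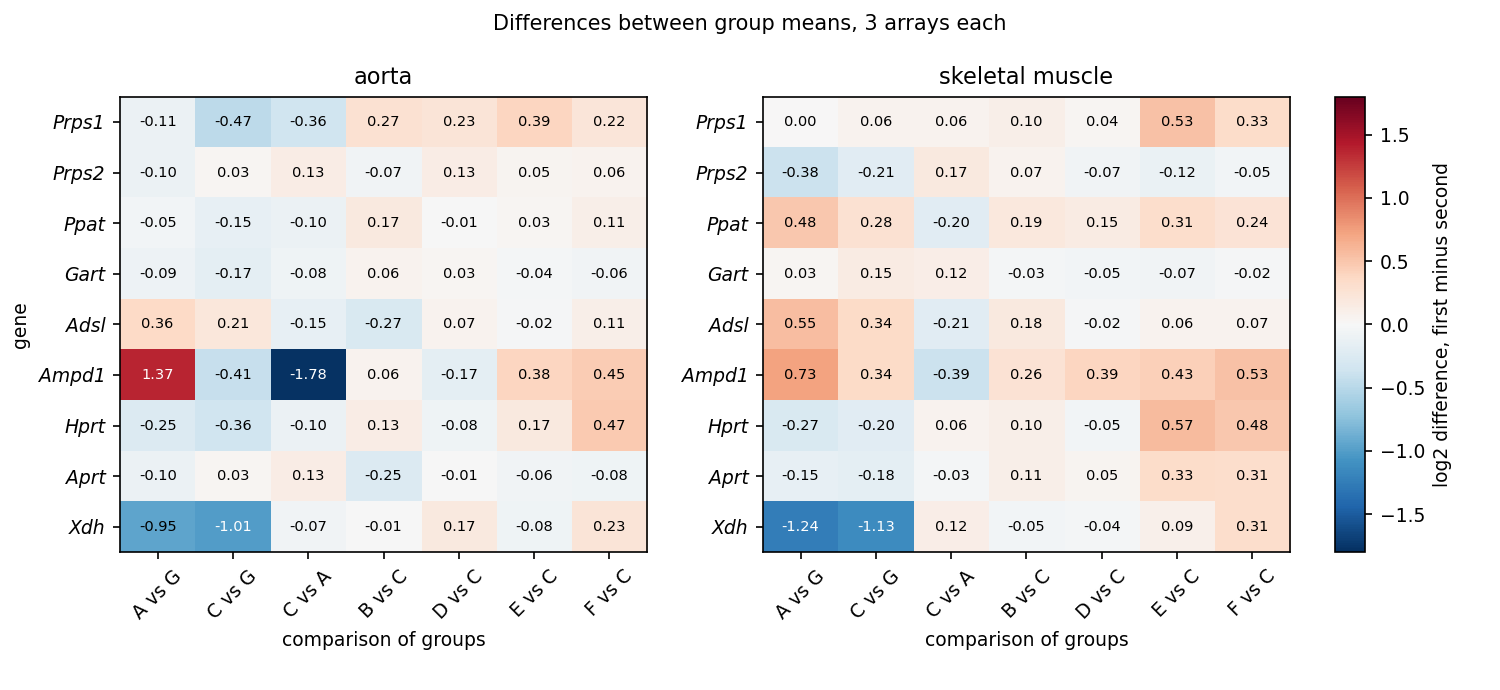
Log2 difference of the group means (first minus second group, 3 arrays each, colour and number) for the 9 genes (rows) in 7 comparisons (columns), in aorta and in skeletal muscle. The blue cells of Xdh in A vs G and C vs G (-0.95 to -1.24) stand in both tissues; the aortic Ampd1 mean of A includes 1 array at 10.82.

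Prps1 and Hprt were described in E vs C and F vs C, the contrasts that chose the set. Prps1 was 9.03, 8.97 and 8.97 in the aorta of C and 9.42, 9.38 and 9.35 in that of E, and 10.24, 10.16 and 10.22 in the muscle of C and 10.77, 10.66 and 10.78 in that of E. All huoxue arrays lay above all model arrays in both tissues, by 0.39 in aorta and 0.53 in muscle. The aorta of C was itself the lowest of the 7 groups for Prps1. Of 15711 genes, 1.12% were higher without overlap in both tissues in E vs C, and Prps1 was the 1 of the 9 genes among them. All aorta arrays of B (9.38, 9.33 and 9.09) and of D (9.37, 9.25 and 9.05) lay above those of C as well, by 0.27 and 0.23 on average. In muscle the arrays of B also lay above those of C, by 0.10. Prps1 was thus higher without overlap in both tissues in B vs C too, as 0.205% of genes were. The C arrays are those of E vs C, the contrast in which Prps1 was first seen. The differences of B and D from C are therefore no independent result for Prps1.

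Hprt was 11.52, 11.89 and 11.79 in the aorta of C and 12.44, 12.16 and 12.03 in that of F, and 11.34, 11.36 and 11.32 in the muscle of C and 11.84, 11.78 and 11.83 in that of F. The rosiglitazone arrays lay above the model arrays in both tissues, by 0.47 in aorta and 0.48 in muscle. In F vs C 0.974% of 15819 genes did so, and Hprt was the 1 of the 9 genes among them. In E vs C Hprt was 0.57 higher in muscle, with no overlap, and 0.17 higher in aorta, with overlap. Prps1 was 0.33 higher in the muscle of F, with no overlap, and 0.22 higher in the aorta, with overlap.

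In muscle, Prps1 and Hprt were set against the other KK/Ay groups. Prps1 was 10.44 to 10.78 on those 6 arrays and 10.06 to 10.41 on the 12 arrays of A, B, C and D. Hprt was 11.78 to 11.94 and 11.19 to 11.49. All 6 arrays lay above the other 12 for both genes, as they did for 6.21% of 13943 genes. For Aprt, 1 of its 2 probes was not well above background on any muscle array, and on the other the 6 arrays (11.79 to 11.98) overlapped the 12 (11.58 to 12). The 6 arrays lie on slides 1 and 2, which hold none of those other 12 arrays, so in muscle E and F cannot be told apart from their slides. Slide 2 also holds 2 healthy muscle arrays, with 11.83 and 11.37 for Hprt and 10.07 and 10.37 for Prps1. There the rosiglitazone mean was above the healthy mean by 0.21 for Hprt and by 0.36 for Prps1. In aorta, too, no slide holds C with E or F.

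**Figure D5:**
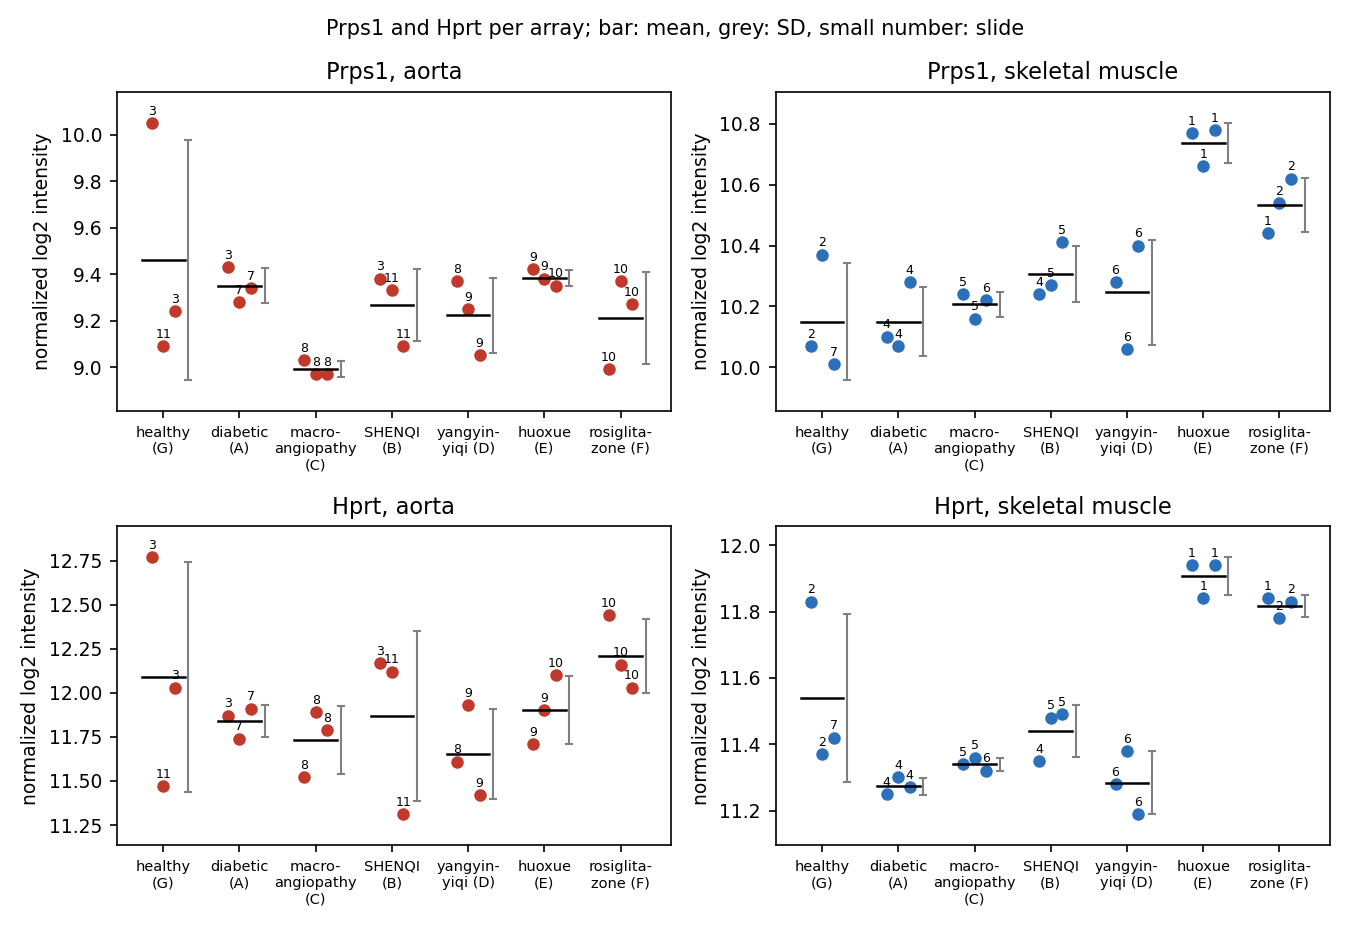
Normalized log2 intensity (y axis) of Prps1 and Hprt on each array of the 7 groups (x axis) in aorta and skeletal muscle, with the mean as a bar, the SD in grey and the slide number above each point. In muscle the huoxue and rosiglitazone arrays, all on slides 1 and 2, lie highest among KK/Ay arrays for both genes; healthy array 1, on slide 2, reaches 11.83 for Hprt.

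The 9 genes had a median difference from C of 0.14 in group E and 0.18 in group F, against 0.01 and 0 for all genes and 0.07 and 0.09 for the 30 pathway genes, and 7 and 8 of the 9 differences were positive, against 53% and 49.5% of all genes. These values include Prps1 and Hprt, for which the set was chosen, and are given as a description only. The median in E is the value of Aprt, which averages in the probe not well above background on any muscle array. The positive differences include Xdh in E (0 after rounding) and Prps2 in F (0.01). Ppat differed by 0.31 in the muscle of E and by 0.24 in that of F. Its 2 probes, both detected, gave 0.48 and 0.13 in E and 0.35 and 0.13 in F. In the aorta of E they gave 0.2 and -0.15. The detected Aprt probe differed by 0.18 in the muscle of E and by 0.17 in that of F. The 2 comparisons share the 6 arrays of C.

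Genes with the most similar pattern were listed by Pearson correlation, as a description over arrays that share slides and groups. Over 42 arrays, with the mean of each tissue subtracted, Prps1 was closest to Isy1 (r of 0.81), Rsbn1l (0.80) and Cse1l (0.79) among 11297 genes, with lower Spearman values of 0.63, 0.64 and 0.61. Hprt was closest to Eef1e1 (0.85), Ptplad1 (0.80) and Dynlt1b (0.79), with Spearman values of 0.80, 0.84 and 0.74. Over the 21 muscle arrays Ampd1 was closest to Itgb1bp2 (0.94), Pgm2 (0.94) and Acot13 (0.93). Its Spearman values with the same 3 genes were lower (0.59, 0.69 and 0.72), with 1 array, healthy muscle array 3, far from the rest. Over the 21 aorta arrays Xdh was closest to Rars2 (0.92), Rbm47 (0.91) and Mrpl9 (0.90), with Spearman values of 0.90, 0.88 and 0.90.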

How the data were processed

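The authors labelled total RNA with 1 dye and used 42 Agilent arrays. The deposited scanner files, made with Agilent Feature Extraction 10.7 by the submitters' processing notes, give the intensity of 45018 spots per array. A second deposited table holds log2 values of the authors, whose order within arrays follows the processed signal (Spearman 0.9998 to 1). Slides, 11 in all, were told apart by the file headers. Median intensities were corrected with normexp (offset 0) in limma 3.58.1 under R 4.3.3, quantile normalized and put on the log2 scale. Irregular spots were masked and the probes of a symbol averaged, with 34891 of 41174 probes named. Tested genes had no masked value and a probe that passed the scanner's background test on all 3 arrays of a set compared. Group comparisons were fitted in limma on their 12 arrays with tissue as a term, and tissues and single-tissue comparisons on all 42 arrays with 14 means, with Benjamini-Hochberg adjustment at 0.05 over all genes. The fit was tested on simulated data.

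The 9 genes, the pathway list and the marker lists were chosen with earlier results of these data known. Among pathway genes the 4 largest called tissue differences in each direction and any gene called in a comparison over both tissues are named, and for Prps1, Hprt, Ampd1 and Xdh the 3 best correlated genes. Paics, Pfas, Atic and Ampd3 were added after their values were seen. Prps1 and Hprt were not tested against group C. Alternatives were an offset of 50, the processed signal, quantiles within tissue, no or a stricter filter, the brightest probe, the authors' table, slide and replicate terms, other eBayes options, other sets of arrays and each array left out. The number of arrays limits the precision.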

Additional observations from a re-analysis of the deposited data

How the results depend on the processing

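The tissue differences of Adsl, Ppat, Prps1 and Gart kept their direction and call under every alternative run, as did those of Ampd1 and Prps2 wherever the filter kept them (-8.44 to -5.99 and 0.49 to 2.25), and Hprt reversed to -0.04 (adjusted p = 0.604) with the processed signal. Aprt was called lower in aorta with that signal (-0.37) and with quantiles within each tissue (-0.32), and Xdh higher with the latter (0.39) and with the brightest probe (0.32). Xdh in A vs G kept its direction throughout (-1.35 to -0.56) and its call except with slide as a fixed term, where 0 of the 9 genes were called, as also in A vs G in aorta (-0.62, adjusted p = 0.375). The fit of all 42 arrays called 2 in A vs G, Adsl added, and the replicate block 0 in C vs G (Xdh -1.07, adjusted p = 0.0775). This block changed no other count. In group comparisons it joins same-numbered arrays of the 2 groups within a tissue, and 7 of 30 such pairs correlated over 0.1 (-0.52 to 0.57). That check does not bear on whether an aorta and a muscle array of the same number came from 1 mouse. With the 6 arrays of a tissue alone, 0 were called in A vs G in aorta, in C vs G in aorta and in C vs G in muscle, and 1 in A vs G in muscle, as with the authors' table or slide as a random block, where Adsl was lost (adjusted p = 0.0677 to 0.116). With each array left out, 7 to 7 genes were called between the tissues, 1 to 1 in A vs G and in C vs G, 0 to 2 in A vs G in aorta, 1 to 3 in A vs G in muscle and 0 to 1 in C vs G in each tissue. Adsl in aorta was added without diabetic aorta array 1 (0.50, adjusted p = 0.0487). The arrays that decided Xdh there were healthy aorta array 2 (-0.80) and diabetic aorta arrays 2 (-0.87) and 3 (-0.90) in A vs G, and macroangiopathy aorta arrays 2 (-0.85) and 3 (-0.90) and healthy muscle array 3 (-0.88) in C vs G. The causes were not tested. In E vs C, Prps1 ranged from 0.42 to 0.55 and in F vs C, Hprt from 0.42 to 0.52; filters and model terms do not enter these values. Slide as a fixed term could not be fitted for aorta against muscle, C vs G, C vs A, several single-tissue comparisons or the interaction. The values of Prps2 in muscle, and of Ampd1 in 4 aorta arrays, are limited by background.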
